A study of Mus musculus with 20 samples.

Results

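Livers of mice that ate a lipid-rich diet containing astaxanthin were compared with livers of mice on ordinary chow. The comparison takes the 5 livers of the group fed the CL diet with astaxanthin (CL + AX) and the 5 livers of the normal chow group (NC), chosen by their diet labels from 20 livers in 4 groups. All mice were C57BL/6J males that entered the study at 7 weeks of age and stayed on their diet for 12 weeks, and livers were taken after a fast of 2 h. NC mice ate CRF-1 chow. The CL diet drew 60% of its calories from fat with a cholesterol content of 1.25% and a sodium cholate content of 0.5%, and the CL + AX mice received this diet with 0.02% astaxanthin, a carotenoid antioxidant. Diet and supplement were therefore changed together between these groups, and no group received astaxanthin in chow. The remaining 10 livers, from mice on the CL diet alone (CL) or with 0.02% vitamin E added (CL + VE), entered neither the normalization nor the main test. RNA of each mouse was hybridized to its own Affymetrix mouse genome array, a chip whose short probes, grouped into probe sets, each read the 3′ end of a transcript.

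A diet rich in cholesterol and cholate loads the liver with sterol and with bile acid. Hepatocytes answer sterol through the SREBP2 transcription factor, which drives cholesterol synthesis when sterol is scarce, and through the liver X receptors (LXR), which drive sterol export when oxysterols build up. Bile acids act on the farnesoid X receptor (FXR), which represses their synthesis from cholesterol. In steatohepatitis, lipid-laden hepatocytes are accompanied by macrophages, lymphocytes and matrix-producing stellate cells. Because whole liver was measured, a change in the number of cells of a type and a change in RNA per cell cannot be told apart in any result given here.

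The deposited signals had a median between 13.01 and 18.79 on the NC arrays and between 26.38 and 27.7 on the CL + AX arrays, so signals were put on the log2 scale and quantile normalized between the 10 arrays, which forces 1 common distribution. A gene was read from the brightest probe set that names it alone, and all differences are CL + AX minus NC on the log2 scale. The hepatocyte products Alb, Ttr and Apoa1 gave log2 signals above 13 in all 10 livers. After normalization, arrays correlated at 0.958 to 0.970 within NC, 0.973 to 0.982 within CL + AX and 0.922 to 0.959 between the groups, over the brighter part of the array. Labelling controls separated the groups in part. The 3′/5′ log2 ratio of the Dap spike, a bacterial transcript that checks labelling, was 3.14 ± 0.18 (SD) in NC and 1.22 ± 0.12 in CL + AX, with no overlap (exact permutation test, two-sided, p = 0.00794, the smallest that 5 against 5 allows). The Thr spike did so as well, at 2.80 and 2.04, while the Phe spike (1.63 and 1.54, exact permutation p = 0.651) and the Lys spike (-0.14 and 0.10, exact permutation p = 0.0873) overlapped. Among RNAs of the liver itself, the 3′/5′ ratio of Gapdh was 0.57 in NC and -0.14 in CL + AX, that of Actb 1.66 and 1.16, and the 18S rRNA signal relative to each array's median 9.64 and 11.61, none of them with overlap. The part of labelling in the differences below was not tested, and since the Dap, Thr, Gapdh, Actb and 18S values separate every NC array from every CL + AX array, labelling and diet cannot be told apart.

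Within NC, livers 1 and 5 stood apart from livers 2, 3 and 4. Livers 1 and 5 both lay below the other NC livers by over 1 log2 unit for 234 genes and above them for 114 genes. The genes with the widest split included Lcn2, Orm2 and Asns. Results are therefore also given without livers 1 and 5 where the value changes by much, a choice made after the data were seen. The p-values without them describe the remaining livers and are not independent tests.

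The livers of CL + AX mice differed from chow livers at 3435 probe sets with a higher signal, 7.63% of 45037, and 3291 with a lower one, 7.31% (limma with a trended prior, Benjamini-Hochberg adjusted p under 0.05). By gene, 1867 of 18193 genes rose, 10.3%, and 1850 fell, 10.2%. These shares, over genes of all signal levels, stand beside the counts of list members below. Of the 6726 called probe sets, 5998 had a mean signal at or above the median. The share called is therefore higher among brighter probe sets, and most lists hold mainly bright genes. A list count somewhat above these shares does not by itself set the list apart. Lists were not compared with genes of like signal. All CL + AX livers lay above all NC livers for 1500 genes, 8.24%, and below them for 1573 genes, 8.65%. Rises were larger than falls. The median rise was 0.79 and the median fall -0.53, and a rise of over 2 was found for 221 genes against 89 genes with a fall of over 2. With 5 livers a group, the median standard error was 0.35, and the number of arrays limits the precision. The balance of rises and falls rests on the scaling. With each array only centred on its median, 27.2% of the called probe sets were higher, and with trimmed-mean scaling 64.8%, against 51.1% here. Of 290 called genes on the lists below, 12 had the opposite sign with signals as deposited, 25 after median centring and 10 after scaling to a trimmed mean.

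**Figure D1:**
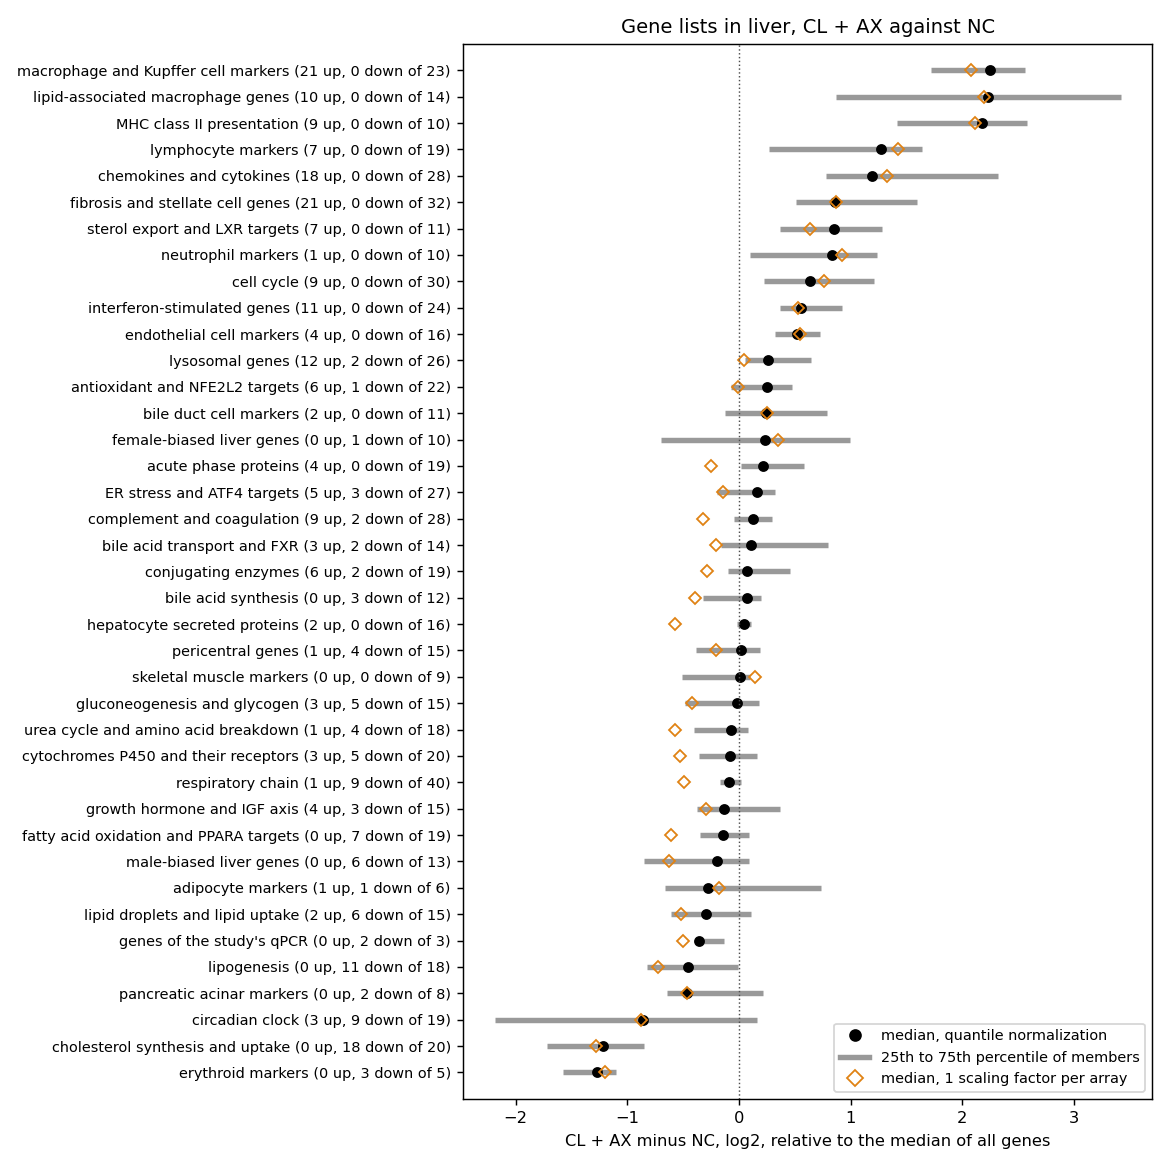
Median log2 difference between CL + AX and NC livers for 39 gene lists, relative to the median of all genes. Black circles are medians after quantile normalization, grey bars span the interquartile range of the members, and open diamonds are medians when each array has 1 scaling factor. Macrophage, MHC class II and lipid-associated macrophage lists lie above 2, cholesterol synthesis lies near -1.2, and lists of bright hepatocyte genes move below 0 with 1 factor per array.

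Genes were ranked among those past the adjusted p, with groups that do not overlap and a mean signal at or above the median. Dimmer genes such as Ccl2, given below, are therefore outside this ranking, although some rose by more. The 10 largest rises in it were led by genes of lipid-laden macrophages. Mmp12 encodes macrophage elastase. The NC livers read Mmp12 at 0.36, 0.54, 3.85, 0.01 and 3.18, and the CL + AX livers at 8.32, 9.47, 7.05, 8.88 and 8.51. Every CL + AX liver lay above every NC liver, and 3 NC livers were near the bottom of the scale. The fitted difference was 6.86 ± 0.70 (log2, SE, adjusted p = 4.16e-05). Since detection calls were not used here and such signals may be background, its size, and those of Emp1, Cxcl2, Slamf8 and Calhm6 below, which also had NC livers near the bottom, are uncertain. Gpnmb, a lysosome-associated glycoprotein of lipid-laden macrophages, was next. In log2 signal, Gpnmb stood at 3.92, 3.18, 3.98, 3.60 and 2.96 in NC and at 8.60, 10.87, 7.88, 10.05 and 9.59 in CL + AX. The groups were more than 3 log2 units apart at their nearest livers, and the difference was 5.87 ± 0.44 (log2, SE, adjusted p = 6.95e-06). Lgals3, which encodes the lectin galectin 3, rose by 3.94, and the lysozyme genes Lyz1 and Lyz2 rose by 3.60 and 3.55. These lysozymes are near-identical copies whose probes may share signal. The chemokine gene Cxcl2, the platelet-activating factor hydrolase gene Pla2g7, the leukocyte receptor gene Slamf8, the membrane protein gene Emp1 and the channel gene Calhm6 rose by 3.67, 3.66, 3.59, 4.09 and 3.35. The other probe set of Emp1 had the opposite sign.

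The 10 largest falls under the same rule held clock, bile acid and sterol genes. They were Ciart (-4.57), Mmd2 (-3.94), Dbp (-3.89), Cyp7a1 (-3.77), Cyp8b1 (-3.49), Noct (-3.40), Ppp1r3g (-3.35), Idi1 (-2.99), Asns (-2.97) and Dct (-2.94). Ciart and Mmd2 had CL + AX livers near the bottom of the scale, the lowest at 0.82 and 0.66, so the sizes of both falls are uncertain. Ppp1r3g encodes a subunit that brings protein phosphatase 1 to glycogen, Asns makes asparagine, and Dct is an enzyme of melanin synthesis. Noct gave log2 signals of 10.02, 10.47, 9.83, 10.47 and 9.43 in the 5 NC livers and 6.18, 6.19, 6.92, 7.48 and 6.43 in the 5 CL + AX livers. Noct encodes nocturnin, a phosphatase with a strong daily rhythm. No CL + AX liver reached the lowest NC liver, and the difference was -3.40 ± 0.25 (log2, SE, adjusted p = 6.95e-06). Asns gave log2 signals of 6.63, 9.16, 9.02, 8.70 and 6.96 in the 5 NC livers and 4.83, 5.04, 4.65, 5.60 and 5.50 in the 5 CL + AX livers. NC livers 1 and 5 were the low chow livers for Asns, yet both lay above all CL + AX livers, and the difference was -2.97 ± 0.45 (log2, SE, adjusted p = 0.000552).

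**Figure D2:**
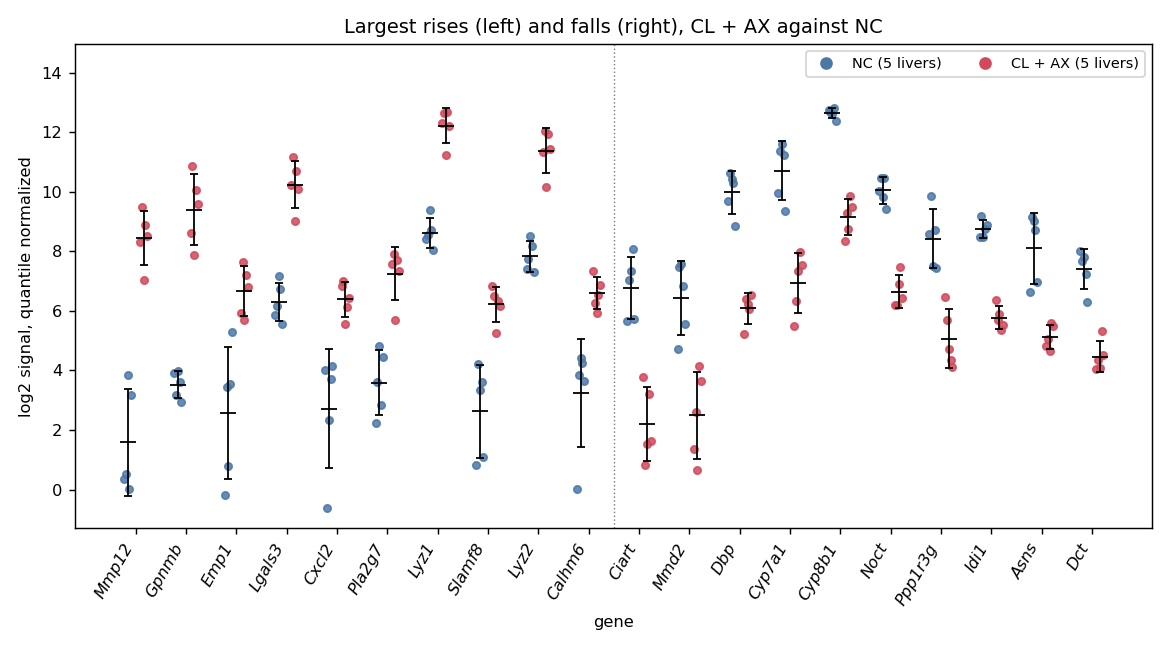
Log2 signal of the 10 genes with the largest rise and the 10 with the largest fall, in 5 NC livers (blue) and 5 CL + AX livers (red). Bars show the mean and SD of each group. The groups do not overlap for any of these genes, which is part of the rule that chose them. The rule also asks for a mean signal at or above the median.

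Cholesterol synthesis fell almost as a whole. Of 25 listed genes 20 were measured, of which 18 fell, 0 rose and 2 did not pass the test, against 10.2% of all genes falling. The median difference was -1.24, while the median over all genes was -0.03. Idi1, the isopentenyl diphosphate isomerase of the mevalonate pathway, fell most. Idi1 was at 8.48, 9.19, 8.48, 8.76 and 8.88 in the NC livers and at 6.36, 5.70, 5.88, 5.35 and 5.53 in the CL + AX livers on the log2 scale. The lowest NC liver lay above the highest CL + AX liver by about 2 log2 units, and the difference was -2.99 ± 0.19 (log2, SE, adjusted p = 2.02e-06). Sqle makes squalene epoxide, the first oxygenation on the way to sterol. Sqle gave log2 signals of 6.50, 7.40, 7.17, 6.87 and 6.71 in NC and 4.75, 4.24, 4.80, 4.17 and 3.38 in CL + AX. The groups did not overlap, and the difference was -2.66 ± 0.27 (log2, SE, adjusted p = 3.85e-05). Further along the pathway, the methyl sterol oxidase gene Msmo1 (-2.38), the lanosterol demethylase gene Cyp51 (-2.21) and the sterol reductase genes Tm7sf2 (-1.73) and Dhcr7 (-1.26) fell. Of the steps before squalene, Fdps (-1.80), Fdft1 (-1.16), Mvk (-0.91) and Pmvk (-0.78) fell as well. Mvd (-0.57) and Hmgcs1 (-0.43) were the members that missed the adjusted p. Among regulators, Srebf2, which encodes SREBP2 itself, fell by 1.21, Insig1, which retains the SREBP complex in the endoplasmic reticulum, fell by 1.66, and the sterol carrier gene Stard4 fell by 1.65. With 1 scaling factor per array the list median relative to all genes was -1.28, close to the -1.21 found here. Signals as deposited, with no scaling, left 13 of the 20 lower and 0 higher.

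The promoters of these genes are shown because most of the list fell and its regulator binds next to the CCAAT box factor NF-Y. RefSeq promoter windows (GRCm38.p6, 250 bases before to 50 after a start site) were at hand for 16 of the 20 measured genes. All 16 held the letters CCAAT on either strand in at least 1 window, 100%, against 41.1% of 27025 genes with a window. The letters TCACNCCAC, a form of the sterol regulatory element, were in 1 of the 16, the Hmgcs1 promoter, 6.25% against 1.44%. These motifs do not overlap each other in their letters, a match is a description and not a binding site, and no match says only that these letters are not in the window. The windows of Idi1, Msmo1 and Cyp51, the genes with the largest falls among those with a window on file that held the letters, follow 5′ to 3′ with CCAAT or its reverse complement in capitals.
Idi1 promoter, chr13:8885356-8885655, plus strand: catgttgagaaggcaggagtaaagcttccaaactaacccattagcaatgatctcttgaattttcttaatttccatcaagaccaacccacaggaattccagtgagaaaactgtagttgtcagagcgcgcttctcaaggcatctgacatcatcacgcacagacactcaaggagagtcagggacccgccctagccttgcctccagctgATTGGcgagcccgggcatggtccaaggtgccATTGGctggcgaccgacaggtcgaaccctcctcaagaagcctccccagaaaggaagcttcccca
Msmo1 promoter, chr8:64733529-64733828, minus strand: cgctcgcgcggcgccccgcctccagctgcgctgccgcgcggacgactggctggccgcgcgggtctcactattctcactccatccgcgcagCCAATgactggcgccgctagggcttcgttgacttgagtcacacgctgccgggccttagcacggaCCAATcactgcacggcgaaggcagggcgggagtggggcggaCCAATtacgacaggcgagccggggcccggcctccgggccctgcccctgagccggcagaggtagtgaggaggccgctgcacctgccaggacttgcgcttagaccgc
Cyp51 promoter, chr5:4104648-4104947, minus strand: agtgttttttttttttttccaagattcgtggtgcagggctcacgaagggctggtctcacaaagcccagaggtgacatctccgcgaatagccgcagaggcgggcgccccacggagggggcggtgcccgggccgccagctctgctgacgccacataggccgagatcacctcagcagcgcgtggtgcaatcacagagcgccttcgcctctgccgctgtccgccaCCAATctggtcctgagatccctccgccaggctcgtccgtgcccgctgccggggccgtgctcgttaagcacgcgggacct

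In the Idi1 window the matches begin at -45 and -14 from the start site, in Msmo1 at -160, -96 and -55, and in Cyp51 at -29. These genes fell by 2.99, 2.38 and 2.21.

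Bile acid synthesis changed at 3 enzymes, with 9 of the 12 measured genes short of the test. Cyp7a1, the rate-limiting enzyme of the classic route, fell. The NC livers read Cyp7a1 at 9.95, 11.37, 11.60, 11.24 and 9.34, and the CL + AX livers at 5.50, 6.32, 7.35, 7.97 and 7.52. NC livers 1 and 5 were the lowest chow livers, and all CL + AX livers lay below them. The difference was -3.77 ± 0.49 (log2, SE, adjusted p = 0.000196). Cyp8b1, the hydroxylase needed for cholic acid, fell as well. In log2 signal, Cyp8b1 stood at 12.75, 12.67, 12.62, 12.80 and 12.36 in NC and at 8.35, 9.30, 8.75, 9.86 and 9.49 in CL + AX. Chow livers lay close to one another and well above every CL + AX liver, at a difference of -3.49 ± 0.22 (log2, SE, adjusted p = 2.02e-06). Cyp7b1, of the alternative route, fell by 1.11 with overlapping groups, while Cyp27a1, which opens that route, read -0.03 and did not pass. The list median was 0.04 after quantile normalization and -0.39 relative to all genes with 1 factor per array, so no direction of the list as a whole is given. With median centring 0 higher and 8 lower genes were called, and without NC livers 1 and 5 2 higher and 3 lower.

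Transporters and FXR-linked genes split. Of 14 measured genes, 3 rose and 2 fell, against 10.3% and 10.2% of all genes. Abcb11, the bile salt export pump, rose by 0.97 ± 0.18 (log2, SE, adjusted p = 0.0021). Slc51b, a subunit of the basolateral bile acid exporter, rose by 2.33 ± 0.54 (log2, SE, adjusted p = 0.00917), and Atp8b1, a canalicular lipid flippase, rose by 0.97. The lowest NC liver read Slc51b at 0.69, so the size of the Slc51b rise is uncertain. Nr1h4, which encodes FXR, fell by 0.66, and the export pump gene Abcc3 fell by 0.29. Nr0b2, the FXR-induced repressor SHP, read 1.11 (adjusted p = 0.0597), and the uptake carrier gene Slc10a1 read -0.21 (adjusted p = 0.0837). Without NC livers 1 and 5 the Slc10a1 difference was -0.29 and passed at an adjusted p of 0.0253. The split depends on the scaling. Signals as deposited gave 5 higher and 0 lower, median centring 2 higher and 6 lower, and the list median relative to all genes was 0.11 here and -0.20 with 1 factor per array. Abcc3 read 0.07 as deposited.

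Sterol export genes rose. Of 13 listed LXR targets and sterol transport genes 11 were measured, of which 7 rose and 0 fell, with a median of 0.82 against -0.03 over all genes. Abcg5 gave log2 signals of 9.39, 10.003, 10.11, 10.11 and 9.31 in the 5 NC livers and 11.21, 11.08, 11.52, 10.98 and 11.18 in the 5 CL + AX livers. Abcg5 and Abcg8 form the transporter that sends sterol into bile, and no NC liver reached a CL + AX liver for either gene. The differences were 1.41 ± 0.16 (log2, SE, adjusted p = 9.41e-05) and 1.21 ± 0.13 (log2, SE, adjusted p = 5.03e-05). Abca1, which loads cholesterol on apolipoprotein A1, rose by 0.72, Abcg1 by 1.81, the ubiquitin ligase gene Mylip by 0.96, Srebf1 by 1.30 and the lysosomal sterol carrier gene Npc2 by 0.42. The list median relative to all genes was 0.64 with 1 factor per array and 0.85 here.

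**Figure D3:**
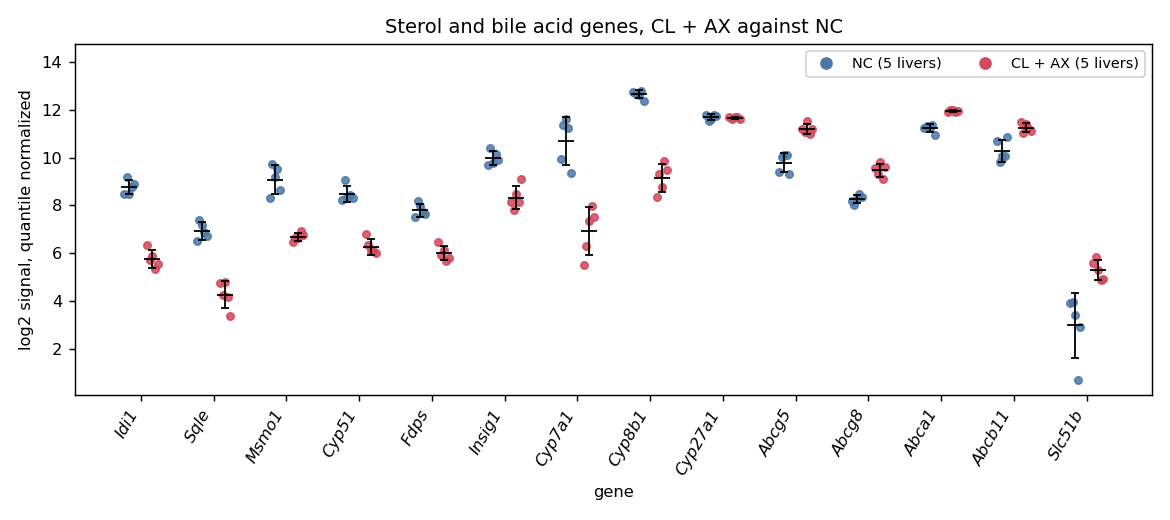
Log2 signal of sterol and bile acid genes in 5 NC livers (blue) and 5 CL + AX livers (red), with the mean and SD of each group. Synthesis genes from Idi1 to Insig1 and the bile acid enzymes Cyp7a1 and Cyp8b1 lie lower in CL + AX, and the exporters Abcg5, Abcg8, Abca1, Abcb11 and Slc51b lie higher, while the groups overlap for Cyp27a1.

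Fatty acid synthesis was lower at 11 of 18 measured genes, with the main synthase and desaturase outside the calls. Of 18 measured genes, 11 fell and 0 rose, and the median was -0.48. Acacb, the mitochondrial acetyl-CoA carboxylase, gave the largest fall. Acacb was at 8.32, 8.06, 8.41, 8.23 and 7.63 in the NC livers and at 7.12, 6.77, 6.23, 5.58 and 5.96 in the CL + AX livers on the log2 scale. The groups did not overlap and the difference was -1.80 ± 0.25 (log2, SE, adjusted p = 0.000321), although the other probe set of this gene had the opposite sign. The elongase gene Elovl6 fell by 1.30, Thrsp, a lipogenic regulator, by 1.29, malic enzyme Me1 by 1.08 and Dgat1, which completes triglyceride, by 0.91. Mlxipl, which encodes the carbohydrate-responsive factor ChREBP, fell by 0.54. Fasn read -0.37 (adjusted p = 0.0678), Acaca 0.09 and Scd1 0.07, none of which passed. Srebf1, whose protein drives lipogenesis, was higher by 1.30, as given among the LXR targets. Median centring gave 0 higher and 14 lower, and signals as deposited 2 higher and 3 lower.

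Fatty acid oxidation genes fell by small amounts where they passed. Of 19 measured genes 7 fell and 0 rose, with a median of -0.17. Ppara gave log2 signals of 10.99, 10.84, 10.90, 10.95 and 10.89 in the 5 NC livers and 10.01, 10.08, 9.9999, 10.23 and 10.64 in the 5 CL + AX livers. Ppara encodes the receptor that drives this program in fasting, and its groups did not overlap. It fell by 0.72. The carnitine carrier gene Slc25a20 fell by 0.71, Cpt2 by 0.45, Hadha by 0.44 and Cpt1a by 0.39, though of the 3 Cpt1a probe sets only the 1 used had this sign. Fgf21 (0.63), Pdk4 (0.10) and Cyp4a14 (-0.17) did not pass. Relative to all genes, the list median was -0.14 here and -0.61 with 1 factor per array, when 16 of 19 were lower with median centring. Signals as deposited gave 1 higher and 1 lower.

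Droplet genes fell in part. Of 15 measured genes, 6 fell and 2 rose, against 10.2% and 10.3% of all genes, at a median of -0.32. Cidec, a protein that fuses lipid droplets, fell by 1.11 ± 0.28 (log2, SE, adjusted p = 0.0148). Mogat1, an acyltransferase of triglyceride synthesis, fell by 1.22, the lipase genes Mgll and Pnpla2 by 0.76 and 0.48, and Plin5 by 0.57. Plin2, the main coat protein of hepatocyte droplets, read -0.03, and the fatty acid transporter gene Cd36 read 0.19, and neither passed. The rises were Plin3 (0.74) and Fabp4 (0.94), the latter a lipid carrier of macrophages and adipocytes. Signals as deposited gave 3 higher and 1 lower on this list.

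Macrophage markers rose nearly throughout the list. Of 23 measured genes, 21 rose and 0 fell, against 10.3% of all genes rising, and the median was 2.22. Relative to all genes, the list median was 2.25, and 1.85 without NC livers 1 and 5, when 20 rose. Cd68 gave log2 signals of 4.72, 5.07, 6.49, 5.93 and 5.21 in the 5 NC livers and 8.11, 8.93, 7.18, 8.61 and 7.96 in the 5 CL + AX livers. Cd68 is a lysosomal membrane protein of macrophages, and each CL + AX liver lay above each NC liver. The difference was 2.68 ± 0.35 (log2, SE, adjusted p = 0.000196). Adgre1, a surface receptor used to count macrophages, rose by 1.37, and the receptor genes Cd14, Marco and Csf1r rose by 2.65, 3.32 and 1.74. Genes of resident Kupffer cells were among them, with Clec4f at 1.21, Vsig4 at 2.22, Timd4 at 1.42 and Cd5l at 2.11. Complement C1q genes rose by 2.39 (C1qa), 2.25 (C1qb) and 2.61 (C1qc). Cd163, a haemoglobin scavenger receptor, read -0.47 and did not pass. CL + AX liver 3 had the lowest Cd68, Mmp12, Gpnmb, Lgals3 and Lyz2 signals of its group.

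Genes that mark lipid-associated macrophages rose at 10 of 14 measured members, with 0 falls and a median of 2.20. Trem2 is a lipid-sensing receptor of these cells. Trem2 gave log2 signals of 2.59, 2.88, 1.84, 3.71 and 0.94 in NC and 4.89, 7.60, 4.15, 6.98 and 6.004 in CL + AX. The groups did not overlap and the difference was 3.53 ± 0.65 (log2, SE, adjusted p = 0.00223), with the other Trem2 probe set of opposite sign. Its size is uncertain, as the lowest NC liver read 0.94. Lpl, lipoprotein lipase, which adult hepatocytes barely express, rose by 2.98 ± 0.18 (log2, SE, adjusted p = 2.02e-06). The integrin gene Itgax (CD11c) rose by 2.63, the actin-capping gene Capg by 2.69 and the tetraspanin gene Cd9 by 1.77. Lipa (-0.01) and Fabp5 (0.28) did not pass.

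Chemokines rose with them. Of 28 measured chemokine and cytokine genes 18 rose and 0 fell, at a median of 1.16. Relative to all genes, the list median was 1.19, and 0.98 without NC livers 1 and 5, when 17 rose. Ccl2 recruits monocytes. The NC livers read Ccl2 at -0.33, 2.48, 1.35, -0.08 and 0.41, and the CL + AX livers at 6.25, 6.27, 4.58, 5.53 and 6.19. Chow livers were near the bottom of the scale, and all CL + AX livers lay above them. The fitted difference was 4.995 ± 0.57 (log2, SE, adjusted p = 8.73e-05), a size made uncertain by these low chow signals. The chemokine genes Ccl3, Cxcl1, Cxcl9 and Ccl5, and the Ccl2 receptor gene Ccr2, rose by 4.43, 3.32, 2.96, 2.59 and 3.17. Cxcl10, an interferon-induced chemokine, rose by 2.20 ± 0.26 (log2, SE, adjusted p = 0.000123). Il1b rose by 1.25 and Tgfb1 by 1.07. Tnf read -0.09 ± 0.73 and Il6 1.35, neither past the test.

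MHC class II genes, which present antigen to helper T cells, rose at 9 of 10 measured members with a median of 2.15. Without NC livers 1 and 5, 7 rose, and the list median relative to all genes was 1.84, against 2.18 with them. Cd74 gave log2 signals of 7.20, 7.31, 7.77, 7.62 and 7.53 in the 5 NC livers and 10.95, 11.20, 9.04, 11.05 and 10.83 in the 5 CL + AX livers. Cd74 is the invariant chain of the class II complex, and CL + AX liver 3 lay between the groups, nearer to NC. The difference over all livers was 3.13 ± 0.32 (log2, SE, adjusted p = 4.16e-05). H2-Aa showed the same liver apart, at 10.59 against 11.97 to 12.15 in the other CL + AX livers and 8.87 to 9.42 in NC, and it rose by 2.51. Ciita, the regulator that switches these genes on, rose by 0.97 (adjusted p = 0.042) with CL + AX liver 3 inside the NC range, and without NC livers 1 and 5 it read 0.77 and did not pass (adjusted p = 0.142).

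Lymphocyte markers rose at 7 of 19 measured genes, against 10.3% of all genes, at a median of 1.25, with 10 of the 19 below the median signal of the array. Klrd1, a natural killer receptor subunit, rose by 2.17, the pan-leukocyte gene Ptprc by 2.05, the T cell genes Cd3d and Cd28 by 1.93 and 1.88, and the B cell gene Ms4a1 by 1.61. The T cell genes Cd3e (-0.28) and Cd8a (0.18) and the B cell gene Cd79a (-0.39) did not pass. Cd3e and Cd79a had mean log2 signals of 3.30 and 2.23, below the median of 4.22, so these 2 readings may be background. Of the 19 genes, 4 rose without NC livers 1 and 5. Of 10 neutrophil markers 1 rose, the receptor gene Csf3r (2.34), a share near the 10.3% of all genes. The calprotectin genes S100a8 and S100a9 read 1.34 and 0.80 with adjusted p of 0.0948 and 0.329.

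Interferon-stimulated genes rose at 11 of 24 measured members, with 0 falls and a median of 0.53. Gbp2, an interferon-induced GTPase, rose most. In log2 signal, Gbp2 stood at 5.99, 5.55, 5.02, 6.22 and 5.88 in NC and at 9.45, 7.75, 7.08, 7.65 and 8.55 in CL + AX. The groups did not overlap, and the difference was 2.37 ± 0.36 (log2, SE, adjusted p = 0.00065). Cmpk2 (1.45), Ifit2 (1.40), Irf1 (1.12) and the immunoproteasome gene Psmb8 (0.96) also rose. Irf7 rose by 0.48, and Ifit1 read -0.33 and did not pass. The letters TTTCNNTTT, the core of the interferon-stimulated response element, were found on either strand in the promoter windows of 11 of 20 genes with a window, 55%, against 12.1% of all genes. The windows of Gbp2 and Gbp3, the largest rises with a match, are shown with these letters in capitals. The matches begin at -59 in Gbp2 and at -45 and -39 in Gbp3, where they overlap.
Gbp2 promoter, chr3:142620413-142620712, plus strand: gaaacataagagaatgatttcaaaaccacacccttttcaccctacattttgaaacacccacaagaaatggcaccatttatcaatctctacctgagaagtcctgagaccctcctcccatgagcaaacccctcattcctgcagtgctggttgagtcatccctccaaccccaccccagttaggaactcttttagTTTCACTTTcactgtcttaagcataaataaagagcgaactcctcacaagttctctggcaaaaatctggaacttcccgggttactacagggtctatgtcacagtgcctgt
Gbp3 promoter, chr3:142559794-142560093, plus strand: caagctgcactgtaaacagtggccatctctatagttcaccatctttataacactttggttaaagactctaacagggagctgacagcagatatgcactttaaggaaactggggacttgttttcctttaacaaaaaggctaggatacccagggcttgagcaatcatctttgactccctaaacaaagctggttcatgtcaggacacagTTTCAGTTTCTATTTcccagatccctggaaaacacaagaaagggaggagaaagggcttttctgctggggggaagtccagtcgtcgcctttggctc

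Acute phase proteins, which hepatocytes secrete under inflammatory cytokines, gave few calls. Of 19 measured genes 4 rose and 0 fell, at a median of 0.19, but the direction turns with the scaling. Median centring gave 1 higher and 8 lower, and the median relative to all genes was 0.22 here and -0.25 with 1 factor per array. The 4 were the fibrinogen genes Fgg, Fgb and Fga (0.19, 0.37 and 0.39) and the lipopolysaccharide-binding protein gene Lbp (0.84). With median centring the fibrinogen genes read -0.54, -0.36 and -0.31, opposite in sign, as they did with trimmed-mean scaling. Lcn2 encodes lipocalin 2, an iron-siderophore trap. Lcn2 was at 5.47, 12.60, 11.87, 11.36 and 6.66 in the NC livers and at 11.03, 12.33, 10.71, 11.78 and 11.64 in the CL + AX livers on the log2 scale. NC livers 1 and 5 were 4 or more log2 units below the other chow livers, which lay near the CL + AX livers. Orm2 gave log2 signals of 7.21, 12.24, 12.68, 12.29 and 6.67 in the 5 NC livers and 9.83, 10.24, 9.28, 10.22 and 9.26 in the 5 CL + AX livers. Here the CL + AX livers lay between the low and the high chow livers. The differences over all livers were 1.91 for Lcn2 (adjusted p = 0.321) and -0.45 for Orm2 (adjusted p = 0.842). Without NC livers 1 and 5, Lcn2 read -0.44 (adjusted p = 0.448), Orm2 fell by 2.61 (adjusted p = 4.7e-05), Saa1 fell by 0.60 (adjusted p = 0.00253), and 5 genes of the list rose while 6 fell. These livers were left out after their low Lcn2 and Orm2 signals were seen, so these p-values are descriptions and not independent tests.

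Matrix genes rose, while the smooth muscle actin that marks activated stellate cells did not pass the test. Of 34 listed genes 32 were measured, of which 21 rose and 0 fell, at a median of 0.83. Col1a1 gave log2 signals of 4.11, 4.21, 3.75, 4.55 and 4.22 in the 5 NC livers and 5.68, 6.84, 5.56, 5.99 and 5.99 in the 5 CL + AX livers. Col1a1 is the main chain of fibrillar collagen I, and the groups did not overlap. The difference was 1.84 ± 0.25 (log2, SE, adjusted p = 0.000317). Timp1, which blocks matrix metalloproteinases, rose by 2.55 ± 0.32 (log2, SE, adjusted p = 0.000167). The lysyl oxidase gene Lox, which cross-links collagen, rose by 3.02, Col3a1 by 2.28, Vim by 2.10 and Pdgfrb by 1.33. Acta2, the smooth muscle actin, read 0.07 ± 0.15, and Des, another stellate cell marker, -0.02, and neither passed.

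Vessel and duct markers moved less. Of 16 endothelial markers 4 rose and 0 fell, at a median of 0.49. Stab2, a scavenger receptor of sinusoids, rose by 0.49, Fcgr2b by 0.71 and the angiopoietin receptor gene Tek by 0.69. Pecam1 read 1.81 ± 0.66 and did not pass with all livers (adjusted p = 0.084), but did without NC livers 1 and 5 (1.91, adjusted p = 0.0259). Lyve1 read 0.30. Among 11 bile duct markers, the keratin gene Krt23 (1.95) and Sox9 (1.18) rose, and the defining duct genes Krt19 and Epcam read -0.10 and -0.01 and did not pass.

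Genes of proteins secreted by hepatocytes had a median difference near 0 after quantile normalization. Among 16 genes of secreted proteins, Apob (0.19) and Fgb rose and 0 fell, against 10.3% and 10.2% of all genes, at a median of 0.01. Alb read -0.17, Ttr -0.04 and Apoa1 -0.005. These are among the brightest genes of the array, and the result depends on the scaling. With 1 factor per array the list median relative to all genes was -0.57, and median centring called all 16 lower, Apob (-0.55) and Fgb (-0.36) among them. Respiratory chain genes also depended on the scaling, with 9 of 40 lower and 1 higher at a median of -0.12, and a median relative to all genes of -0.09 here and -0.49 with 1 factor per array. The complex I genes Ndufs7 (-0.70), Ndufb3 (-0.61) and Ndufs1 (-0.40) fell, and Ndufc1 rose by 0.24. Ndufs1 turned to 0.03 with signals as deposited and Ndufc1 to -0.27 with median centring.

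Drug-metabolizing genes showed single changes. Of 20 cytochrome P450 and receptor genes, 3 rose and 5 fell, against 10.3% and 10.2% of all genes. The receptors fell, with the xenobiotic sensors Nr1i3 at -0.69 and Nr1i2 at -0.54, their partner Rxra at -0.33, and the sensor Ahr at -0.60. Cyp1b1 (1.31), Cyp1a2 (0.65) and Cyp3a13 (0.48) rose, and Cyp3a11 read 0.02. These counts depend on the scaling, with 1 higher and 14 lower after median centring and 3 higher and 0 lower as deposited. Rxra turned to 0.06 as deposited and Cyp3a13 to -0.03 with median centring. Of 19 conjugating enzymes, 6 rose and 2 fell, against 10.3% and 10.2% of all genes. With median centring 2 higher and 9 lower were called, and the list median relative to all genes turned from 0.07 to -0.29 with 1 factor per array. The glutathione transferase genes Gstm3, Gsta4 and Gstm1 rose by 2.29, 1.19 and 0.72, and Gstt2 and Gstt3 fell by 0.79 and 0.76. The transferases of the mu class are close copies, so their values may share signal.

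Zonal and nitrogen genes fell at a few members. Of 15 pericentral genes 4 fell and 1 rose, and 0 higher and 8 lower were called with median centring against 5 higher and 3 lower as deposited. Rhbg, an ammonium transporter of the cells around the central vein, fell by 2.11 ± 0.25 (log2, SE, adjusted p = 0.000111), Lhpp by 1.53 and the glutamate carrier gene Slc1a2 by 0.76. Oat gave log2 signals of 12.89, 12.82, 12.89, 12.98 and 12.90 in the 5 NC livers and 11.81, 12.27, 12.36, 12.41 and 12.43 in the 5 CL + AX livers. Oat, ornithine aminotransferase, lay lower in each CL + AX liver than in any NC liver and fell by 0.64 ± 0.10 (log2, SE, adjusted p = 0.000913), and CL + AX liver 1 was the lowest. Glul (0.22) and Cyp2e1 (-0.13) did not pass. Of 18 urea cycle and amino acid genes, Tat, Asl, Gpt and Gnmt fell by 0.83, 0.51, 0.48 and 0.23 and Otc rose by 0.24, while Cps1 (0.07), Ass1 (-0.47) and Arg1 (-0.06) did not pass. That is 1 higher and 4 lower, against 10.3% and 10.2% of all genes, while median centring gave 0 higher and 14 lower and turned Otc to -0.36. The list gave, without NC livers 1 and 5, 2 higher and 5 lower.

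Glycogen and insulin genes fell at 5 of 15 members and rose at 3, against 10.2% and 10.3% of all genes. Median centring gave 1 higher and 9 lower, and signals as deposited 5 higher and 2 lower. The transcription factor genes Onecut1 and Foxo1 fell by 1.52 and 1.09, the liver glycogen synthase gene Gys2 by 0.96 and the insulin receptor gene Insr by 0.60. Pck1, the gluconeogenic carboxykinase, read 0.01. In the growth hormone axis 4 genes rose and 3 fell of 15, against 10.3% and 10.2% of all genes. Median centring gave 2 higher and 6 lower. Igfals, which carries IGF1 in blood, fell by 1.06, the receptor gene Ghr by 0.52 and Igf1 by 0.25, and Socs3, a cytokine feedback inhibitor, rose by 1.57 ± 0.20 (log2, SE, adjusted p = 0.000174). Of 13 male-biased liver genes 6 fell, among them Susd4 (-2.29) and Cyp4a12a (-0.88). The female-biased list gave 1 fall of 10, Cyp17a1 (-2.06), a share near the 10.2% of all genes. The female marker Cyp2b9 read 1.96 (adjusted p = 0.0733). Akt2, an insulin-responsive kinase gene measured by PCR in the study, fell by 0.43 ± 0.07 (log2, SE, adjusted p = 0.00143). With signals as deposited it read 0.11, opposite in sign. In the model of 20 arrays, CL + AX minus CL was 0.17 ± 0.07 for Akt2 (adjusted p = 0.59).

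Complement and clotting genes rose at 9 of 28 members and fell at 2, at a median of 0.10, but the direction turns with the scaling. Median centring gave 2 higher and 17 lower, trimmed-mean scaling 2 higher and 10 lower, and the median relative to all genes was 0.12 here and -0.32 with 1 factor per array. Leaving out NC livers 1 and 5 gave 7 higher and 4 lower. C5ar1 (2.21) and C1qa, both genes of myeloid cells, gave the largest rises. Among hepatocyte products, the lectin gene Mbl2 rose by 0.44 ± 0.09 (log2, SE, adjusted p = 0.00369), complement factor Cfb by 0.48 and clotting factor F5 by 0.42, and C8b fell by 0.56. With median centring Mbl2 read -0.16, Cfb -0.10 and F5 -0.17, all opposite in sign. F2 (-0.06) and C9 (0.25) did not pass.

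Clock genes moved far in both directions. The liver clock is a feedback loop in which Arntl (BMAL1) with Clock or Npas2 switches on the Per, Cry and Nr1d genes, whose proteins then repress it, and Dbp, Tef and Hlf carry the rhythm to metabolic genes. Of 19 measured genes 9 fell and 3 rose, at a median of -0.89. Dbp gave log2 signals of 9.69, 10.62, 10.44, 10.30 and 8.83 in the 5 NC livers and 5.21, 6.39, 6.22, 6.07 and 6.53 in the 5 CL + AX livers. All CL + AX livers lay below all NC livers by more than 2 log2 units, at a difference of -3.89 ± 0.31 (log2, SE, adjusted p = 9.84e-06). On the repressor side, Per2 fell. Per2 gave log2 signals of 7.01, 8.10, 7.92, 8.15 and 7.03 in NC and 4.37, 4.19, 5.14, 5.46 and 5.98 in CL + AX. The difference was -2.61 ± 0.34 (log2, SE, adjusted p = 0.000196), and Per1 (-1.85), Per3 (-2.59) and Ciart (-4.57) fell as well. For Ciart, the NC livers read 5.64, 7.04, 7.32, 8.07 and 5.74, and the CL + AX livers 3.79, 0.82, 1.52, 3.21 and 1.62. NC livers 1 and 5 were again the low chow livers.

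On the activator side the direction was opposite. Arntl gave log2 signals of 6.67, 5.36, 5.92, 6.04 and 6.78 in the 5 NC livers and 7.96, 7.57, 7.93, 7.72 and 7.25 in the 5 CL + AX livers. Arntl rose by 1.53 ± 0.24 (log2, SE, adjusted p = 0.000725), and NC livers 1 and 5 were the chow livers nearest to CL + AX. Npas2 rose by 3.93 ± 0.88 (log2, SE, adjusted p = 0.00816), from NC values of -0.63 to 4.51, so its size is uncertain. The output genes Tef, Hlf and Usp2 fell by 1.19, 0.90 and 2.63, and Nfil3, which opposes them, rose by 0.62. Nr1d1 (-0.46), Cry1 (0.41), Cry2 (-0.89) and Clock (0.37) did not pass. The hour of collection is not given in the sources used here. Without NC livers 1 and 5, 11 clock genes fell and 3 rose, and the list median relative to all genes was -0.89, near the -0.86 with them.

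**Figure D4:**
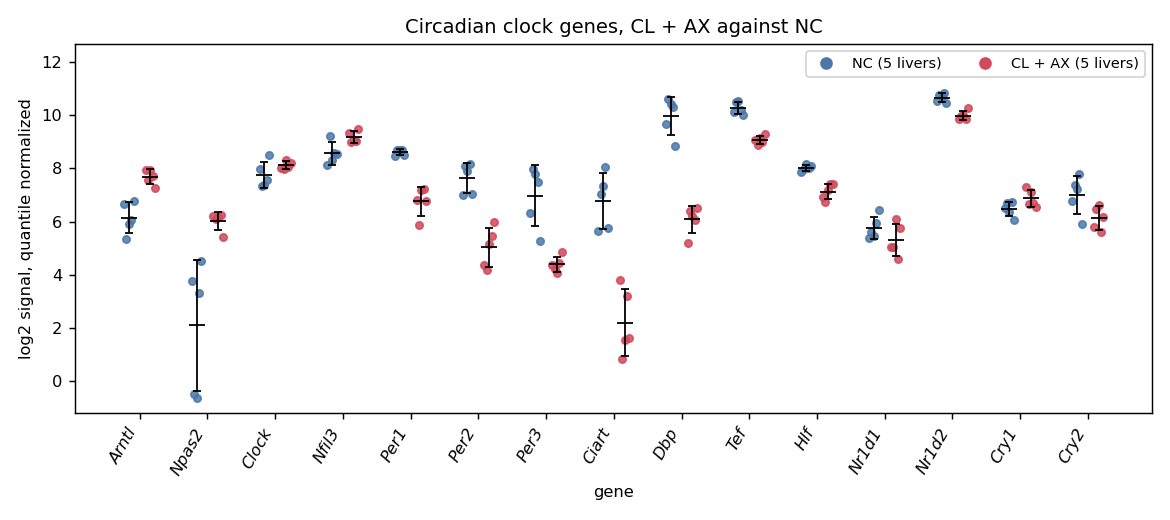
Log2 signal of 15 clock genes in 5 NC livers (blue) and 5 CL + AX livers (red), with the mean and SD of each group. Arntl and Npas2 lie higher in CL + AX, the Per genes, Ciart, Dbp, Tef, Hlf and Nr1d2 lie lower, and Nr1d1, Cry1, Cry2 and Clock overlap between the groups.

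The letters CACGTG, the E-box bound by the clock activators, were searched in the promoter windows of the clock list, which was added after the data were seen. They were in 5 of 17 genes with a window, 29.4%, against 8.09% of all genes. Ciart and Per1 are shown, the falling genes with the largest change and a match. The Ciart window holds 3 matches, beginning at -116, -58 and -44, and the Per1 window holds 1 at -166, all in capitals.
Ciart promoter, chr3:95882179-95882478, minus strand: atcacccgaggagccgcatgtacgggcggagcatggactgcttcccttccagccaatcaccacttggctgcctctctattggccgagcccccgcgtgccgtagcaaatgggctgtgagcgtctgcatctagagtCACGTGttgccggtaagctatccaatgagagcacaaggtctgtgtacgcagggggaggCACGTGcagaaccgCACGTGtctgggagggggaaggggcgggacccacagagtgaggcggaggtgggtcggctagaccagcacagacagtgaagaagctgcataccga
Per1 promoter, chr11:69098699-69098998, plus strand: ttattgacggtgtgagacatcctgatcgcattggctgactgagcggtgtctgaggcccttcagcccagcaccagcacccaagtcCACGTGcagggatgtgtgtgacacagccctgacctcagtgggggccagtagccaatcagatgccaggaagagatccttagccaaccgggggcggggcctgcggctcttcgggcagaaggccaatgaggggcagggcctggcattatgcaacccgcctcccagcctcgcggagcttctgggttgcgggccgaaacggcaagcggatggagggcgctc

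Cell cycle genes rose at 9 of 30 members with 0 falls, at a median of 0.60. Mki67 gave log2 signals of 2.91, 3.59, 3.11, 3.08 and 4.38 in the 5 NC livers and 4.57, 5.37, 4.34, 5.70 and 5.16 in the 5 CL + AX livers. Mki67 marks cells in cycle. It rose by 1.61 ± 0.36 (log2, SE, adjusted p = 0.00788), with NC liver 5 inside the CL + AX range. Top2a rose by 1.02, though the other 2 Top2a probe sets had the opposite sign, and Ccnd1, Cdc20 and Ccna2 rose by 1.21, 1.19 and 1.17. The cyclin-dependent kinase inhibitor gene Cdkn1a (p21) rose by 1.36.

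Stress genes changed singly. Of 27 genes of endoplasmic reticulum stress and of the ATF4 response, 5 rose and 3 fell, against 10.3% and 10.2% of all genes. Median centring gave 2 higher and 9 lower, signals as deposited 14 higher and 2 lower, and the list median relative to all genes turned from 0.16 to -0.14 with 1 factor per array. Hspa5, the main chaperone of the reticulum, read -0.22, Ddit3 (CHOP) 0.14 and Atf4 -0.09, and none passed. Amino acid synthesis genes of the ATF4 response went opposite ways. Phgdh, the first enzyme of serine synthesis, rose. The NC livers read Phgdh at 3.14, 3.85, 3.97, 3.38 and 4.12, and the CL + AX livers at 6.20, 6.27, 6.54, 5.52 and 6.02. The groups did not overlap, and the difference was 2.41 ± 0.26 (log2, SE, adjusted p = 5.70e-05), whereas Asns fell by 2.97 as given above. Herpud1, a component of reticulum-associated degradation, fell by 1.08, and Chac1, a glutathione-degrading enzyme, rose by 1.06.

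Antioxidant genes rose at 6 of 22 members and fell at 1, at a median of 0.23. Hmox1 gave log2 signals of 5.79, 6.27, 7.11, 6.75 and 6.004 in the 5 NC livers and 7.98, 7.99, 7.54, 8.38 and 7.98 in the 5 CL + AX livers. Hmox1, haem oxygenase 1, is active in macrophages as well as in stressed hepatocytes, and its groups did not overlap. The difference was 1.59 ± 0.23 (log2, SE, adjusted p = 0.000399). Nfe2l2, which encodes the factor NRF2, rose by 0.83, its target Osgin1 by 1.15 and Gclm by 0.47, while the classic NRF2 target Nqo1 read -0.09, Gclc 0.51 and Txnrd1 0.01, none of which passed. Keap1, the NRF2 inhibitor, fell by 0.25. The direction of the list turned with the scaling, from 0.25 relative to all genes here to -0.01 with 1 factor per array. Median centring gave 3 higher and 9 lower and turned Gclm to -0.003, while Keap1 turned to 0.28 as deposited. Leaving out NC livers 1 and 5 gave 9 higher and 3 lower. Lysosomal genes rose at 12 of 26 members and fell at 2, at a median of 0.24, with Ctsd at 0.63, Ctsc at 0.97 and Lamp1 at 0.17, the last short of the test. Their median relative to all genes was 0.26 here and 0.04 with 1 factor per array, and the calls turned to 3 higher and 11 lower with median centring, against 18 higher and 0 lower as deposited.

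Markers of red cells and of neighbouring tissues were listed to see what else the samples held. Erythroid genes fell at 3 of 5 measured members, at a median of -1.30. Alas2 gave log2 signals of 9.51, 9.32, 9.50, 9.43 and 8.86 in the 5 NC livers and 7.87, 8.20, 8.43, 8.45 and 8.03 in the 5 CL + AX livers. Alas2 starts haem synthesis in red cell precursors, and the groups did not overlap. It fell by 1.13 ± 0.14 (log2, SE, adjusted p = 0.000154). Slc4a1, the red cell anion exchanger, fell by 2.02, and the haemoglobin gene Hba-a1 read -0.48. Of 6 adipocyte genes Fabp4 rose and Pparg fell by 0.89, and Adipoq read 1.42, with NC values of 0.12 to 2.54. Skeletal muscle genes gave 0 calls of 9, with 0 at an unadjusted p under 0.05, and Acta1 (-0.54), Ckm (-0.02) and Myh4 (-1.26) did not pass. Pancreatic acinar genes fell at 2 of 8, Clps by 1.74 and Cela1 by 0.44 (0.15 as deposited), while Cpa1 read -0.55 from values near the bottom of the scale.

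The CL group ate the same diet without astaxanthin and was set beside these values. The contrasts CL minus NC and CL + AX minus NC share the same NC livers, so they are given side by side from 1 model of all 20 arrays, and the test of the supplement is CL + AX minus CL in that model. Only 1 of 45037 probe sets passed the adjusted p in that test, 0.00222%, and 0 genes did. It is annotated to 2 genes and is therefore not named, and it was higher in CL + AX by 0.75 ± 0.11 (log2, SE, adjusted p = 0.0461). At an unadjusted p under 0.05, 762 genes were higher and 713 lower in CL + AX than in CL. Of the 3717 genes called against NC, 467 had an unadjusted p under 0.05 against CL. A p that misses the threshold does not show that the diets acted alike. The deposited array medians separated these groups too, at 19.35 to 24.8 in CL and 26.38 to 27.7 in CL + AX. Labelling controls were not compared between CL and CL + AX. Array level thus moved with the supplement, and its part in this contrast was not tested.

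For the inflammatory genes, the difference from NC for Mmp12 was 6.17 in CL, 6.91 in CL + AX and 5.39 in CL + VE. Gpnmb read 5.36 in CL, 5.90 in CL + AX and 4.69 in CL + VE, and Cd74 3.16 in CL, 3.09 in CL + AX and 2.93 in CL + VE. Among sterol genes, Idi1 read -2.83 in CL, -2.99 in CL + AX and -2.99 in CL + VE and Abcg5 1.41 in CL, 1.39 in CL + AX and 1.48 in CL + VE. The macrophage list median was 1.99 in CL, 2.20 in CL + AX and 1.89 in CL + VE, and the cholesterol list median was -1.30, -1.24 and -1.19.

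Among bile acid and clock genes, several fall sizes were larger in CL + AX than in CL, and none of these differences passed the adjusted test. Noct, Cyp8b1, Dbp and Cyp7a1 were named for the size of their CL + AX values, so this comparison is not independent of that choice. Noct read -2.27 in CL, -3.38 in CL + AX and -1.76 in CL + VE, and CL + AX minus CL was -1.11 ± 0.29 (adjusted p = 0.32). Cyp8b1 read -2.71 in CL, -3.44 in CL + AX and -2.40 in CL + VE, with -0.73 ± 0.28 for CL + AX minus CL (adjusted p = 0.571). Dbp read -2.84 in CL, -3.87 in CL + AX and -2.74 in CL + VE, with -1.04 ± 0.39 (adjusted p = 0.55). Cyp7a1 read -2.69 in CL, -3.74 in CL + AX and -1.87 in CL + VE, and its CL + AX minus CL difference had an unadjusted p of 0.067. Oat read -0.17 in CL, -0.63 in CL + AX and -0.21 in CL + VE, with -0.46 ± 0.14 (adjusted p = 0.421). Among genes that rose, the NRF2 target Osgin1 gave 0.75 for CL + AX minus CL (unadjusted p = 0.000645, adjusted p = 0.315) and Phgdh 1.19 (adjusted p = 0.535). Oat, Osgin1 and Phgdh had the lowest adjusted p of this contrast in the pericentral, antioxidant and stress lists. They are extremes of the tested values, so their p-values are descriptions. Neutrophil markers had list medians of -0.03 in CL, 0.81 in CL + AX and -0.28 in CL + VE, with S100a8 at -0.02 in CL, 1.34 in CL + AX and -0.26 in CL + VE and a CL + AX minus CL difference of 1.36 ± 0.61 (adjusted p = 0.658).

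**Figure D5:**
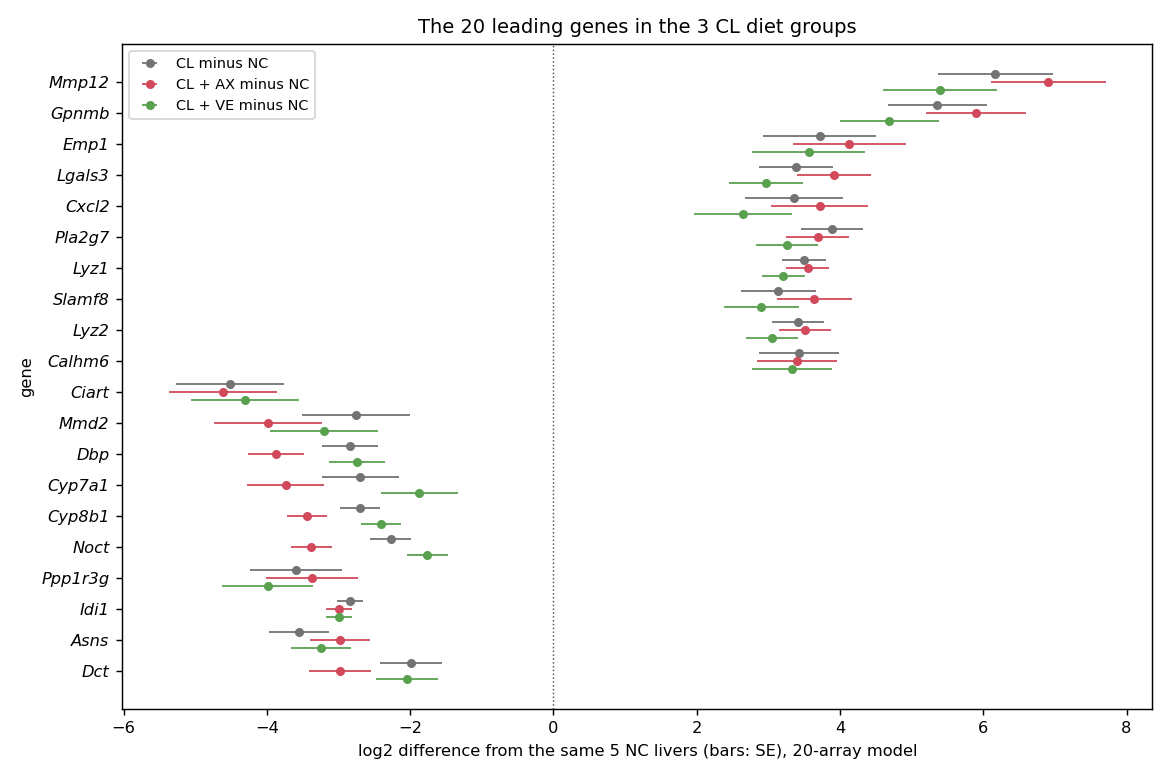
Log2 difference from the same 5 NC livers, with SE, for the 20 leading genes in the CL (grey), CL + AX (red) and CL + VE (green) groups, from 1 model of 20 arrays. The genes were chosen on the CL + AX values, and the 3 contrasts share their NC livers. Most lie furthest from 0 in CL + AX, the group whose values chose them, while Pla2g7, Calhm6, Ppp1r3g, Idi1 and Asns do not.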

How the data were processed

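Liver RNA of 20 mice was hybridized to Affymetrix mouse genome arrays, 1 per mouse, and the 5 CL + AX and 5 NC arrays were compared. The deposited values are intensity signals that the authors computed with the MAS5 software (Microarray Suite). Their scaling target is not given in the sources used here, and detection calls were not used here. The array has 45101 probe sets. After 64 control probe sets were set aside, 45037 were tested, of which 34945 name 1 gene, 932 several and 9160 none in the annotation used, for 18193 genes. Gene IDs of 34741 probe sets matched RefSeq.

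Signals were log2 transformed with no pseudocount and quantile normalized over the 10 arrays in limma 3.58.1 (R 4.3.3), then fitted with lmFit and eBayes with a trended prior, with Benjamini-Hochberg adjustment over all 45037 probe sets and 0.05 as the threshold. The unadjusted p was under 0.05 for 12138 probe sets. A gene was read from its brightest probe set. Where a called gene at or above the median signal had further probe sets, 3183 of those 4214 had the same sign. The contrasts with CL and CL + VE came from 1 model of 20 arrays.

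Members, lists and motifs were chosen with earlier results of these data known. Genes named are the 10 largest rises and 10 largest falls among called genes with groups that do not overlap and a mean signal at or above the median, plus marker genes chosen by role. Other list members were named after their values were seen. List counts and medians are descriptions, with no test of the list. A list of genes that were measured by PCR in the study gave 0 rises and 2 falls of 3, and 1 of those is also in another list.

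Labels number livers 1 to 5 in each group. The correlation of deviations between livers of the same number was -0.07 to 0.08, so the numbers were not used as pairs. The fit was tested on simulated data. With 200 of 45037 probe sets changed at each log2 size, it recovered 32 at 0.5, 136 at 1 and 189 at 2, with 0, 5 and 10 false calls. The adjusted threshold depends on how many probe sets change, and 6726 were called in the data. These recoveries therefore do not give the power of this comparison. P-values set a group difference against the spread between livers within groups, 1 liver per mouse. They do not separate diet from the labelling and array level values that differed between the NC and CL + AX arrays.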

Additional observations from a re-analysis of the deposited data

Results flagged for a closer look

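Among 304 groups of 5 livers, over named genes and list scores (the median over a list of each gene's log2 signal minus its mean over the 10 livers, less the same over all genes), 16 held a liver far from the other 4. Chance marks about 1 in 20 such groups. CL + AX liver 3 was the low one for Pla2g7 (5.71 against 7.33 to 7.91), H2-Aa (10.59 against 11.97 to 12.15), Cd74 (9.04 against 10.83 to 11.20) and Ciita (4.08 against 5.05 to 5.30), and its list scores were low for MHC class II (0.11 against 1.19 to 1.34) and acute phase proteins (0.030 against 0.13 to 0.17). CL + AX liver 1 read Oat at 11.81 against 12.27 to 12.43 and had an erythroid score of -1.33 against -0.63 to -0.36. CL + AX liver 2 read Cpa1 at 0.66 against -0.75 to -0.41.

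In NC, liver 1 read Calhm6 at 0.029 against 3.64 to 4.42 and had a male-biased score of 0.53 against -0.05 to 0.08. NC liver 3 was low for Cxcl10 (4.36 against 5.34 to 5.55) and Ghr (12.29 against 12.52 to 12.61), NC liver 4 for Epcam (3.41 against 5.26 to 5.42) and NC liver 5 for Igf1 (12.29 against 12.49 to 12.55). The lipid droplet score of NC liver 5 was 0.53 against 0.03 to 0.17.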

How the results depend on the processing

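The number of called probe sets followed the scaling, as the median shift of all probe sets was 0.63 as deposited, -0.15 after centring each array on its median and 0.14 after trimmed-mean scaling. Signals as deposited gave 14352 higher and 361 lower, median centring 2274 higher and 6087 lower and trimmed-mean scaling 5089 higher and 2762 lower. Without a trended prior there were 2167 higher and 1930 lower, with the methods' t-test after Benjamini-Hochberg 1910 higher and 2050 lower, in 1 model of all groups 4081 higher and 3681 lower, over brighter probe sets alone 3522 higher and 3752 lower, with the replicate number as a block 3085 higher and 2877 lower, and without NC livers 1 and 5 (chosen after the data were seen) 3673 higher and 3193 lower. Leaving out 1 liver gave 2605 to 3686 higher and 2483 to 3357 lower.

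List medians relative to all genes are the same for every method with 1 factor per array. Scaling as deposited, by the median or by the trimmed mean gave 0.64 for sterol export and LXR targets, -0.73 for lipogenesis, 0.044 for lysosomal genes and -0.49 for the respiratory chain, and turned hepatocyte secreted proteins to -0.57 and antioxidant genes to -0.010. Lists whose liver scores overlapped between the groups also turned, bile acid synthesis from 0.071 to -0.39, bile acid transport from 0.11 to -0.20, acute phase proteins from 0.22 to -0.25, conjugating enzymes from 0.075 to -0.29, pericentral genes from 0.021 to -0.20, endoplasmic reticulum stress genes from 0.16 to -0.14 and complement from 0.12 to -0.32. With the median over all probe sets of a gene, cholesterol synthesis read -1.07, sterol export 0.99, lipogenesis -0.35, lipid-associated macrophage genes 1.73 and the respiratory chain -0.14. Without NC livers 1 and 5, lipogenesis read -0.37, lysosomal genes 0.19 and the respiratory chain -0.048. Leaving out 1 liver gave 0.75 to 1.004 for sterol export and LXR targets, 0.027 to 0.063 for hepatocyte secreted proteins, 0.18 to 0.29 for antioxidant and NFE2L2 targets.

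Of the named genes, those that turned sign as deposited were Cyp27a1 0.20, Fasn 0.20, Plin2 0.076, Tnf 0.68, Ifit1 0.32, Cd3e 0.48, Cd79a 0.38, Krt19 0.68, Epcam 0.75, Ass1 0.21, Arg1 0.018, Hsd3b5 0.022, Slco1a1 0.27, Socs2 0.31, Nr1d1 0.29, Atf4 0.34, Nqo1 0.63, F2 0.016, Ndufs1 0.029, Akt2 0.11, Cela1 0.15, Cpa1 0.10, Acta1 0.22, Ckm 0.77 and Hba-a1 0.29. Centring on the array median turned Scd1 -0.68, Acaca -0.083, Cd36 -0.13, Saa1 -0.0028, Cps1 -0.69, Glul -0.38, Cyp3a11 -0.75, Lamp1 -0.44, C9 -0.44, Mbl2 -0.16, Pck1 -0.64, Cox5a -0.50 and Atp5b -0.51, and trimmed-mean scaling turned Scd1 -0.39, Tnf 0.19, Krt19 0.20, Epcam 0.26, Cps1 -0.40, Glul -0.095, Cyp3a11 -0.46, Nqo1 0.14, Lamp1 -0.15, C9 -0.15, Pck1 -0.36, Cox5a -0.22, Atp5b -0.22 and Ckm 0.28. Without NC livers 1 and 5 they were Cyp27a1 0.026, Plin2 0.12, Tnf 0.10, Saa1 -0.60, Lcn2 -0.44, Cd3e 0.31, Epcam 0.24 and Slco1a1 0.19. Leaving out 1 liver, the ranges that crossed 0 were Plin2 -0.084 to 0.045, Tnf -0.47 to 0.39, Orm2 -1.34 to 0.18, Cd3e -0.72 to 0.015, Cd8a -0.00041 to 0.28, Cd79a -0.93 to 0.15, Acta2 -0.036 to 0.16, Epcam -0.40 to 0.15, Apoa1 -0.027 to 0.013, Slco1a1 -0.23 to 0.049, Socs2 -0.51 to 0.16, Pck1 -0.047 to 0.073 and Ckm -0.51 to 0.25. Of these genes Mbl2, Ndufs1, Akt2 and Cela1 had passed the test, and the cause of the turns was not tested. The replicate block changed the side of the threshold for 4 of 113 named genes and turned none.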
